A study of Mus musculus with 20 samples.

Results

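The regions described here are 2780 binding sites of the POU-domain protein Oct4 (Pou5f1) that were listed in F9 cells after retinoic acid (RA) and not in untreated F9 cells, and that also carried a peak of the HMG-box protein Sox17 in the treated cells. They were chosen from the 39768 strongest Oct4 peaks of F9+RA cells, as the intervals that overlapped no peak of the whole Oct4 list of F9 cells by 1 bp and overlapped a Sox17 peak of F9+RA cells by at least 1 bp. They made up 6.99% of those 39768 peaks, and the 18 peak lists of the series held 765133 peaks in all. Below they are called new Oct4 sites with Sox17. The word new means only that the peak list of F9 cells held no overlapping peak.

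The series mapped Sox2, Sox17 and Oct4 by chromatin immunoprecipitation and sequencing in a pair of mouse cell lines. F9 is a line of embryonal carcinoma cells, used after RA at 1 µM, when the labels describe the cells as resembling primitive endoderm, and untreated. KH2 embryonic stem (ES) cells, undifferentiated and grown with LIF, received doxycycline at 1 µg/ml and overexpressed a V5-tagged Sox17, Sox2KE, Sox17EK or Sox2. Each F9 list (Oct4 F9+RA, Sox17 F9+RA, Oct4 F9) came from 1 library. Each Sox protein had 2 ES libraries, and Oct4 had 2 ES libraries in the Sox2KE, Sox17EK and Sox2 lines and 1 in the Sox17 line. Sox2KE and Sox17EK exchange a residue that differs between the wild types, so Sox17 and Sox2KE carry glutamate there and Sox17EK and Sox2 carry lysine. The labels name no transgene for F9 cells, while the Sox proteins of ES cells were induced and tagged, seen with the V5 antibody alone for Sox2KE, Sox17EK and Sox2. Labels of the Sox17 ES libraries name Sox17 and V5 antibodies, and those of the Oct4 ES libraries name Oct4 and V5, so a peak of the tagged Sox protein cannot be told apart from an Oct4 peak in those Oct4 lists. The time in RA is not given in the sources used here, and no expression was measured, so markers of primitive endoderm could not be checked.

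Oct4 holds cells in the pluripotent state together with Sox2, with which it binds composite DNA elements made of neighbouring Sox and Oct half-sites. Oct4 is also needed as primitive endoderm forms, and Sox17 is a regulator of that lineage. Work on Sox17 has described pairing with Oct4 on a compressed form of the composite element, in which the half-sites lie closer together, and the exchange of the lysine and the glutamate was designed to alter the contact between Sox and Oct4.

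Every value below is a peak's presence, its interval or its score, the number that the peak caller of the authors gave to each peak. The lowest score of every list lay between 50 and 50.03 and the highest between 3100 and 3233, a range that points to 10 times −log10 of a p-value, although no label states it. The shortest list, Sox17 ES replicate B, held 5836 peaks and the longest, Oct4 F9+RA, 84196. No file gives the number of reads, and a score means the same only within its own list. The 5836 strongest peaks of each ES list were therefore used, except where whole lists are named. A cut list then reached down to a score of 75.4 and 50.03 in the Sox17 ES libraries and to 128 to 975 in the other ES libraries. Positions are in build mm9 and count from 1. Exact 95% intervals over sites cover counting error only, and sites are not replicates of a condition.

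New Oct4 sites with Sox17 were weaker Oct4 peaks than kept sites with Sox17 in the median, and a small set stood among the strongest of the list. Their Oct4 scores ran from 100.18 to 3122 with a median of 177, against medians of 127 at the 5036 new sites without Sox17, 321 at the 12687 kept sites with Sox17 and 182 at the 19265 kept sites without it, where kept means that the interval overlapped an Oct4 peak of F9 cells. They made up 6 of the 100 strongest Oct4 peaks and 34 of the next 900. New sites without Sox17 numbered 0 and 1 in those ranks. Between ranks 1001 and 5000 there were 188 new sites with Sox17 and 13 without it. The order was turned between ranks 20001 and 30000, with 808 new sites with Sox17 and 1566 without, and from rank 30001 down there were 781 with and 2885 without. These counts restate values that chose the sites and carry no test.

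**Figure D1:**
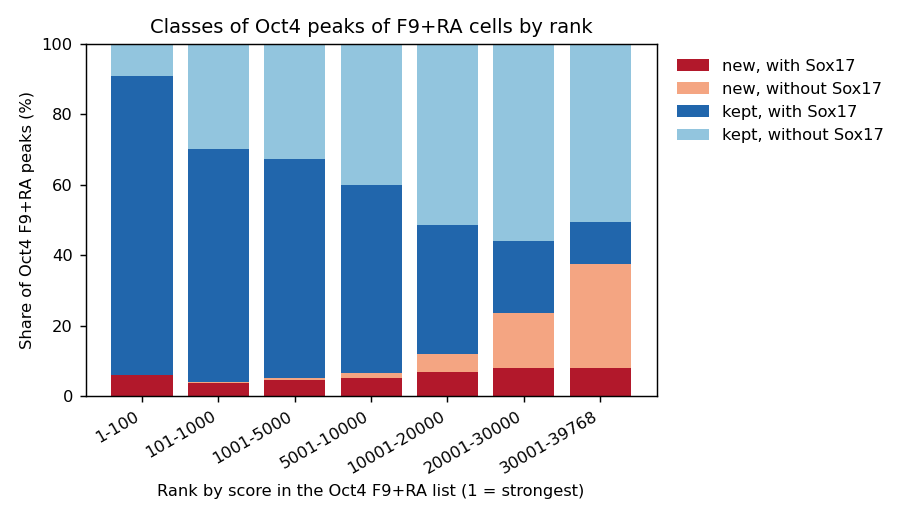
Share (%) of each class of Oct4 peaks of F9+RA cells, stacked, in 7 bins of rank by score (1 is the strongest). New sites with Sox17 make up 6% of the 100 strongest peaks and 8.0% of the weakest bin, while new sites without Sox17 make up 0% and 29.5%.

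At these sites the Oct4 and Sox17 peaks lay nearly on top of each other. Their midpoints were a median of 68 bp apart (quartiles 28 and 131), against 128 bp (54 and 260) at kept sites with Sox17. Within 50 bp lay 1131 of the 2780 pairs (40.7%), against 23.4% of kept sites. The Oct4 intervals were narrower than those of kept sites, with a median width of 563 bp against 909 bp, and the part of width in the midpoint distances was not tested. The overlap covered over 50% of the narrower interval at 2689 sites (96.7%), and fell under 50 bp at 15. The first share was close to the 94.8% of kept sites with Sox17 and the 95.2% of all Oct4 peaks with a Sox17 peak. Overlap with a Sox17 peak was itself part of the rule. Sox17 scores had a median of 112 at new sites with Sox17 and 97.0 at kept sites with Sox17. The rank correlation of the Oct4 and Sox17 scores was 0.443 across the 2780 sites and 0.378 across the kept sites, which are sites of 1 pair of libraries and share their chromatin.

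The cut at rank 39768 fell in a dense part of the list. The last site inside it was on chromosome 18 at 4392381 to 4392634, with an Oct4 score of 100.18 and a Sox17 score of 102. The last but one was on chromosome 13 at 113875005 to 113875279, with scores of 100.18 and 115, and before it stood a site on chromosome 4 at 22763017 to 22763486, with 100.22 and 251. Just outside lay a region of chromosome 19, from 10772669 to 10773074, with an Oct4 score of 100.13 and a Sox17 score of 530. The next ones were a region of chromosome 10 from 116736937 to 116737374 with scores of 100.11 and 94.6, and one of chromosome 9 from 71593325 to 71593878 with 100.11 and 117. Below the cut, 2724 of the 44428 weaker Oct4 peaks (6.13%) also had a Sox17 peak and no Oct4 peak in F9 cells.

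Of the new sites with Sox17, 1572 (56.5%) lay within 10 kb of an Oct4 peak of untreated F9 cells, as did 57.0% of new sites without Sox17. The gap to the nearest such peak had a median of 7814 bp, against 7290 bp at new sites without Sox17. It was at most 500 bp at 246 sites with Sox17 (8.85%) and at 10.5% of those without. Within 20 kb of another member lay 712 of the 2780 sites (25.6%). The same share was not taken for new sites without Sox17 or for kept sites. Whether new sites with Sox17 cluster more than other Oct4 peaks was thus not tested. The densest group held 8 sites in 64.5 kb of chromosome 12, from 113474453 to 113539001, with Oct4 scores of 107 to 409. A group of 7 lay on chromosome 4, from 111089248 to 111156628, and included a site with the Oct4 score 3100 and the Sox17 score 2758. Another 7 lay in 39.8 kb of chromosome 16, from 92656307 to 92696064, with Oct4 scores of 181 to 633 and Sox17 scores of 90.3 to 615.

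By chromosome, new sites with Sox17 made up between 5.21% (chromosome 7, 125 of 2398, exact 95% interval 4.36 to 6.18) and 10.5% (chromosome X, 101 of 965, 8.61 to 12.6) of the Oct4 peaks. Chromosome 12 held the most of them, 239, at 7.93% of its 3015 peaks. It also held the most Oct4 peaks and the most new sites without Sox17 (497). New sites of either kind made up 24.4% of its peaks, the highest share of any chromosome. On chromosome X, 51.5% of the new Oct4 sites had Sox17, against 31.2% to 42.9% on the other chromosomes. All of this rests on the lists of the rule and is given as a description.

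The ES lists were not used to choose the sites, so their peaks were tested, within limits set by the rule. The Oct4 list of untreated F9 cells was used, which bears on comparisons of new sites with kept sites and with all 39768 peaks. The Sox17 list of F9+RA cells was used too, and Sox17 is itself a glutamate protein. That bears on comparisons of glutamate with lysine proteins, and of new sites with and without Sox17. Neither comparison is independent of the rule. The sites were met by Sox17 and by Sox2KE, the proteins with glutamate, several times more often than by Sox17EK and Sox2, the proteins with lysine. Sox17 peaks lay at 5.50% (153 sites, exact 95% interval 4.69 to 6.42) and 6.22% (173 sites, 5.35 to 7.19) of them in replicates A and B. Sox2KE peaks lay at 5.36% (149 sites, 4.55 to 6.26) and 6.62% (184 sites, 5.72 to 7.61). Sox17EK peaks lay at 0.755% (21 sites, 0.468 to 1.15) and 1.04% (29 sites, 0.700 to 1.49), and Sox2 peaks at 2.12% (59 sites, 1.62 to 2.73) and 1.65% (46 sites, 1.21 to 2.20). Every one of these shares was below that of the 39768 Oct4 peaks as a whole, of which the 8 libraries met 13.0%, 10.3%, 7.27% and 11.0% (Sox17 A, B, Sox2KE A, B) and 11.0%, 9.04%, 8.27% and 9.16% (Sox17EK A, B, Sox2 A, B). The intervals moved by 10 kb to either side met a peak in 0.899% to 1.56% of cases for the glutamate libraries and in 0.576% to 0.773% for the lysine libraries. The share of Sox17EK replicate A lay at that level. The moved intervals were not filtered against Oct4 peaks of F9 cells, as the sites were, so they are not a like background.

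Over libraries the shares were 5.93% ± 0.596 for glutamate and 1.39% ± 0.614 for lysine proteins (SD, n = 4 each), a difference of 4.53 percentage points without overlap of the groups. The exact two-sided permutation p was 0.0286, below which 8 libraries split evenly cannot go, and its Benjamini-Hochberg value among the 6 planned tests was 0.0429. With any single library left out the same test could not pass, at an adjusted p of 0.0686 and differences of 4.30 to 4.78 points. Whole lists gave 11.7 points (exact permutation p = 0.143, adjusted 0.214) in lists of very unequal length. The difference was 1.36 points with the 1000 strongest ES peaks and 8.59 points among the 10000 strongest Oct4 peaks, each with an adjusted p of 0.0571. Peaks of the cut glutamate lists were the wider ones, with median widths of 854 to 1429 bp against 417 to 804 bp in the cut lysine lists. With midpoints within 200 bp as the match, the difference was 3.34 points (exact permutation p = 0.0286, adjusted 0.0469). Libraries of a protein share its line, so the residue and the line cannot be told apart, and for Sox17 neither can the antibody. Each residue was carried by 2 lines, so the 4 libraries of a group are not 4 independent units. No test between the residues was run with lines as units. Sox2KE alone against the lysine libraries, all with the V5 antibody, differed by 4.60 points. The exact permutation p was 0.133, the smallest possible with 2 against 4 libraries. Glutamate libraries also had the higher mean share at kept sites with Sox17 (17.6% ± 5.98 against 8.32% ± 0.904, SD). The same held at new sites without Sox17 (2.04% ± 0.271 against 1.14% ± 0.321), so the order is not particular to new sites with Sox17. At kept sites without Sox17 it was turned (8.49% against 13.3%).

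**Figure D2:**
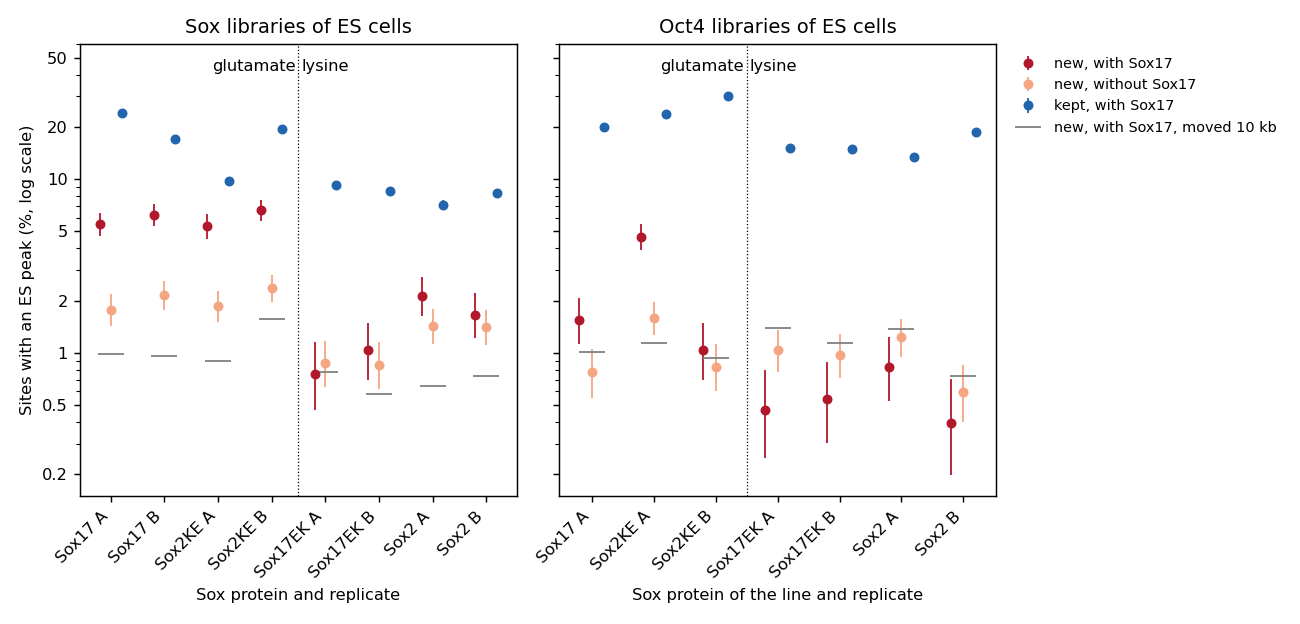
Share (%, log scale) of new sites with Sox17, new sites without Sox17 and kept sites with Sox17 that overlap one of the 5836 strongest peaks of each ES library, with exact 95% intervals, and, as grey bars, of the new sites with Sox17 moved by 10 kb. The new sites with Sox17 lie at 5.36% to 6.62% in the 4 glutamate Sox libraries and at 0.755% to 2.12% in the 4 lysine Sox libraries.

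Set against new Oct4 sites without Sox17, the excess was larger in the glutamate libraries. The rule itself told these classes apart by a peak of Sox17, a glutamate protein, in F9+RA cells. Sox17 ES replicates A and B met the new sites with Sox17 3.11 and 2.90 times as often as those without, and Sox2KE replicates 2.87 and 2.80 times as often. The ratios were 0.865 and 1.22 for Sox17EK and 1.48 and 1.17 for Sox2. The mean share over the 8 libraries was 3.66% of new sites with and 1.59% of new sites without Sox17, a difference of 2.07 points that was positive in 7 of 8 libraries (exact two-sided sign-flip permutation p = 0.0156, adjusted p = 0.0313 over the 6 tests). With a library left out the adjusted p ran from 0.0313 to 0.0625, and only without Sox17EK replicate A did the difference pass. The call was also lost with whole lists (adjusted p = 0.0938), the 1000 strongest ES peaks (0.117), the 10000 strongest Oct4 peaks (0.0686), sites at least 2 kb from any Oct4 peak of F9 cells (0.0686) and the 4 lines as units (0.15), all by the exact permutation test. The ratio averaged 2.92 ± 0.135 in glutamate and 1.19 ± 0.254 in lysine libraries (SD, n = 4 each). On the log2 scale the ratios differed by 1.33 (exact permutation p = 0.0286, adjusted 0.0686 over 6 tests added after the data were seen). New sites with Sox17 have the higher Oct4 scores, and with both classes weighted alike over 10 classes of Oct4 score the difference over the 8 libraries was 1.85 points (exact permutation p = 0.0156, adjusted 0.0313).

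Kept sites with Sox17 were met far more often than the new ones by every ES library. Kept sites were chosen for an Oct4 peak in untreated F9 cells and new sites for its absence. The comparison, above all for Oct4, is therefore not independent of the rule. The mean share over the 8 Sox libraries was 3.66% of new and 12.9% of kept sites with Sox17, a difference of -9.28 points that was negative in 8 of 8 (exact two-sided sign-flip permutation p = 0.00781, adjusted 0.0313). Over the 7 Oct4 libraries the mean share was 1.35% of new and 19.4% of kept sites, a difference of -18.02 points with the same sign in 7 of 7 (exact p = 0.0156, adjusted 0.0313). The libraries come from 4 lines, and with the lines as units neither difference passed (exact permutation p = 0.125, the smallest possible, and 0.15 adjusted). Kept sites were stronger and wider Oct4 peaks. With both classes weighted alike over the 10 classes of Oct4 score, the differences were -4.97 and -10.3 points for Sox and Oct4, and weighted likewise over 10 classes of width they were -7.84 and -11.9 points, all at an adjusted p of 0.0313 by the same exact permutation test.

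Few of the strongest Oct4 peaks of ES cells lay at the new sites with Sox17. In whole lists, 1280 of the 2780 sites (46.0%) had an Oct4 peak of at least 1 ES library, against 80.4% of all 39768 peaks. The shares that follow are of the cut lists. Oct4 peaks lay at 1.55% of them in the Sox17 line (43 sites, exact 95% interval 1.12 to 2.08). In the Sox2KE line the shares were 4.64% (129 sites, 3.89 to 5.49) and 1.04% (29 sites, 0.700 to 1.49). The Sox17EK line gave 0.468% and 0.540%, and the Sox2 line 0.827% and 0.396%. All 4 shares of lysine lines were below those of the same intervals moved by 10 kb (0.737% to 1.38%). The moved intervals could overlap Oct4 peaks of F9 cells, which the sites by rule could not, so a lower share is not a depletion shown. The moved intervals gave 1.007% in the Sox17 line and 1.13% and 0.935% in the Sox2KE line, so Sox2KE line B lay near that level. The 2 groups of lines did not overlap. Of all 39768 Oct4 F9+RA peaks, the Sox17 line met 14.5%, the Sox2KE line 13.1% and 14.2%, the Sox17EK line 14.4% and 13.4%, and the Sox2 line 12.9% and 12.8%. The shares of new sites with Sox17 averaged 2.41% ± 1.95 in glutamate lines (n = 3) and 0.558% ± 0.189 in lysine lines (n = 4, SD), a difference of 1.85 points. The exact two-sided permutation p was 0.0571, below which 3 against 4 libraries cannot go, and 0.0686 adjusted over the 6 tests. The difference rested largely on replicate A of the Sox2KE line, without which it was 0.737 points (exact permutation p = 0.133, the smallest possible with 2 against 4 libraries). Across the 7 libraries the shares did not differ detectably from those of new sites without Sox17 (means of 1.35% against 1.00%, higher in 3 of 7, exact permutation p = 0.688). Without replicate A of the Sox2KE line the difference was -0.103 points. The mean joins opposite signs. The differences were 0.209 to 3.05 points in the 3 libraries of glutamate lines and -0.565 to -0.200 points in the 4 of lysine lines.

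The glutamate proteins met larger shares of the sites whose Sox17 or Oct4 peak was strong in F9+RA cells, as a description without a test. The new sites were split into 4 groups of 695 by their Sox17 score in F9+RA cells. In the group with the highest scores (209.6 to 2760), glutamate libraries met 10.1% ± 1.63 and lysine libraries 1.80% ± 1.18 (SD, n = 4 each). In the group with the lowest scores (50.09 to 72.3) the shares were 3.85% ± 0.475 and 1.19% ± 0.378. Split likewise by the Oct4 F9+RA score, the highest group gave 9.39% ± 1.16 and 1.62% ± 0.964, and the lowest 3.92% ± 0.874 and 1.62% ± 0.543. The lysine shares thus stayed between 0.863% and 1.80% in all 8 of these groups, while the glutamate shares were highest in the highest group by either score.

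**Figure D3:**
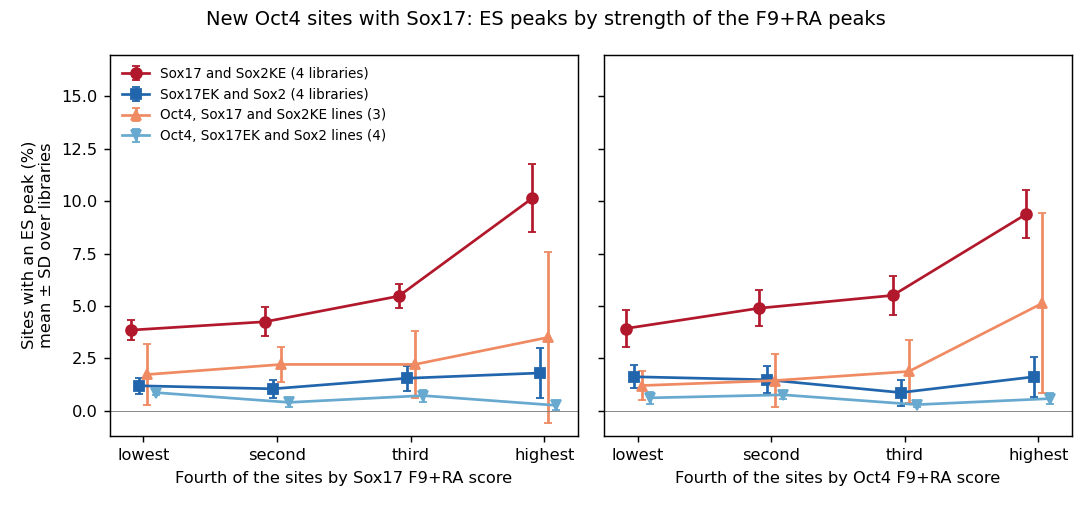
Mean share (%) ± SD over libraries of new Oct4 sites with Sox17 that overlap one of the 5836 strongest peaks of ES libraries, for the sites split into 4 groups (695 sites each) by Sox17 or Oct4 score in F9+RA cells. Glutamate Sox libraries lie at 10.1% in the highest and at 3.85% in the lowest group by Sox17 score, and lysine Sox libraries at 1.80% and 1.19%.

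With whole ES lists, 1285 of the 2780 sites had a Sox peak in at least 1 of the 8 libraries. A glutamate protein and no lysine protein had a peak at 857 of them (30.8% of the sites, against 22.3% of all 39768 peaks), both kinds at 365 (13.1% against 40.7%), and a lysine protein alone at 63 (2.27% against 9.17%). At kept sites with Sox17 the 3 shares were 30.1%, 57.5% and 2.96%, so the share with glutamate alone was much the same there. Of the 857, 693 had Sox2KE as their sole Sox protein, 95 had Sox17 alone and 69 had both. The Sox2KE lists were long, with 33123 and 71693 peaks. Whole lists met the following shares of the new sites with Sox17 and of all 39768 peaks. Sox17 met 8.81% against 20.5% (A) and 6.22% against 10.3% (B), and Sox2KE 18.3% against 32.0% and 39.7% against 59.9%. Sox17EK met 4.78% against 34.6% and 5.68% against 23.9%, and Sox2 8.81% against 29.0% and 7.12% against 26.6%. Oct4 met 14.5% against 54.9% in the Sox17 line, and 35.4% against 61.2% and 16.3% against 49.6% in the Sox2KE line. Lysine lines gave 16.3% against 72.0% and 9.89% against 59.3% for Oct4 with Sox17EK, and 17.01% against 67.6% and 5.76% against 47.5% for Oct4 with Sox2. The new sites with Sox17 thus had the lower share in all 15 lists, where the 39768 peaks include the kept sites, chosen for an Oct4 peak in F9 cells. No site had all 4 lysine libraries without a glutamate library, against 1.45% of all peaks. All 8 Sox libraries met 17 sites, 0.612% of the new sites with Sox17 against 3.27% of all peaks, and all 15 ES libraries met 14 (0.504% against 3.12%). No Sox peak of ES cells lay at 1495 sites (53.8%, against 27.9% of all peaks). No peak of any of the 15 ES libraries lay at 1280 sites (46.0%, against 17.4% of all peaks).

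Both Sox17 ES libraries held a peak at 139 of the new sites with Sox17 (5%, against 7.80% of all 39768 peaks). At 85 of these 139 (61.2%, exact 95% interval 52.5 to 69.3) no lysine library had a peak in its whole list, against 12.8% (11.2 to 14.5) of the 1706 kept sites with Sox17 where both Sox17 ES libraries had a peak. At the 65 such new sites without Sox17 in F9+RA cells the share was 52.3% (39.5 to 64.9), and the intervals overlap. In the Sox17 line, Oct4 was found at 119 of the 139 sites (85.6%, 78.7 to 91.0), against 97.4% of all 3102 Oct4 F9+RA peaks with both Sox17 ES peaks. At the same 139 sites, Oct4 of the other lines lay at 17.99% to 51.8%. Of the 2641 other sites, 10.8% had an Oct4 peak in the Sox17 line.

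Oct4 was also common in a line's own libraries where both replicates of another Sox protein had a peak in the whole lists. Sox2KE did so at 496 sites (17.8%, against 30.9% of all peaks), and 93.5% and 66.3% of these had Oct4 in the Sox2KE line (A and B), against 97.0% and 89.2% of all peaks with both Sox2KE peaks. Sox17EK did so at 63 sites (2.27%, against 17.9%), of which 95.2% and 85.7% had Oct4 in its own line, against 99.8% and 98.1% of all peaks with both Sox17EK peaks. Sox2 did so at 144 sites (5.18%, against 21.0%), of which 93.1% and 52.8% had Oct4 in the Sox2 line (against 99.4% and 90.1%), and 93.8% and 79.2% in the Sox2KE line. Own lines thus gave the highest Oct4 share at the sites of Sox17, Sox2KE and Sox17EK, but replicate A of the Sox2KE line was the highest at those of Sox2. Sites were picked here by Sox peaks of the same line whose Oct4 libraries also name V5, and the lists differ in length, so no test was run.

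**Figure D4:**
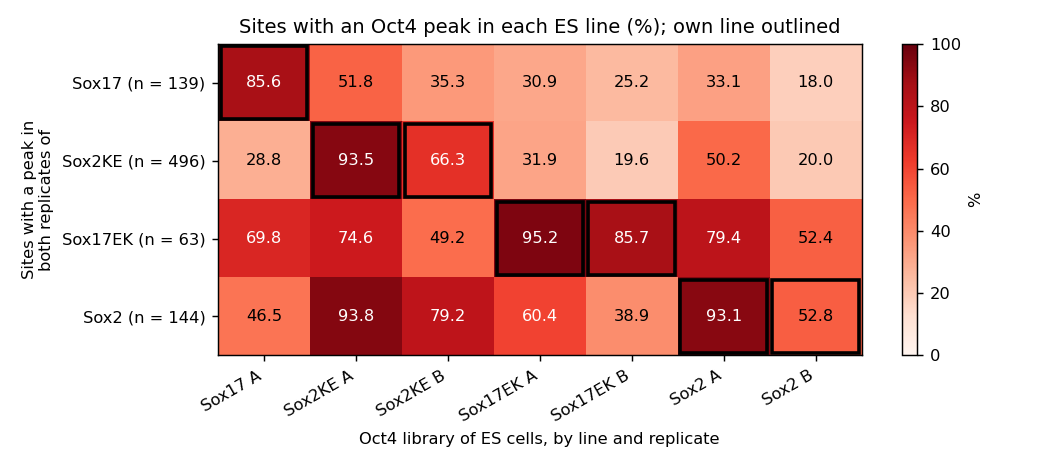
Share (%) of new Oct4 sites with Sox17 that have an Oct4 peak in each of 7 ES libraries (columns), among the sites with a peak in both replicates of a Sox protein (rows, whole lists), with the Oct4 libraries of the same line outlined. The Sox17 row has 85.6% in its own line and 17.99% to 51.8% elsewhere.

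The strongest new sites by the mean of their Oct4 and Sox17 ranks in F9+RA cells differed widely in what ES cells had there. The first, on chromosome 3 at 121642616 to 121643598 (Oct4 score 3100, Sox17 score 1993 in F9+RA cells), had ES peaks of Sox17 alone, with scores of 71.6 and 53.8. The second, on chromosome 4 at 111155453 to 111156628 (3100 and 2758), had Sox2KE peaks of 52.7 and 111 and an Oct4 peak of 108 in Sox2KE line A. The third, on chromosome 1 at 167784582 to 167785450 (3122 and 1177), had strong Sox17 ES peaks of 1821 and 879 and an Oct4 peak of 1686 in the Sox17 line. These 3 sites had no lysine Sox peak. A site on chromosome 4 at 100337492 to 100338027 (3100 and 1712) had Sox17 ES scores of 323 and 91.3 and Oct4 scores of 371 in the Sox17 line and 111 in Sox2KE line A. On chromosome 13, at 31566142 to 31566772 (2900 and 1866), Sox17 scored 64.0 and 65.9 in ES cells, and Oct4 99.2 in the Sox17 line and 98.9 and 64.4 in the Sox2KE line. The site on chromosome 18 at 36543327 to 36544073 (2785 and 1257) had no peak in any ES library. Thus 5 of the first 6 had a peak of a glutamate protein and none of a lysine protein, and the sixth had none at all. The next site, on chromosome 10, had peaks of both kinds. In whole lists, 30.8% of the new sites with Sox17 and 22.3% of all 39768 peaks had a glutamate protein alone. The ranking used the F9+RA lists that chose the sites, so the count is a description.

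The remaining 4 of the 10 strongest included the only lysine peaks among them. On chromosome 10, at 6071620 to 6072993 (2539 and 807), Sox2KE scored 141 and 535, Sox2 71.7 and 53.5, and Oct4 881 in Sox2KE line A, 185 in Sox2KE line B, 137 in the Sox17 line, 76.3 in Sox17EK line A and 120 in Sox2 line A. On chromosome 11, at 83682614 to 83683461 (1928 and 2288), Sox17 scored 526 and 432 in ES cells, Sox2KE replicate B 406, and Oct4 295 in the Sox17 line. That interval lay 25 bp from an Oct4 peak of F9 cells, so it is new only by a narrow margin. On chromosome 12, at 9130897 to 9131505 (2261 and 851), Sox2KE replicate B scored 77.4 and Oct4 235 and 83.5 in the Sox2KE line. On chromosome 3, at 137722999 to 137723964 (1937 and 1335), Sox17 replicate A scored 89.9 and no other ES library had a peak. Sites whose nearest F9 peak lay farthest in this group of 10 were those on chromosomes 13 and 12, at 83031 and 70390 bp.

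Peaks of both Sox17 ES libraries and of Oct4 in the Sox17 line, without any lysine Sox peak, were found at 71 sites (392 of all 39768 peaks, 0.986%). By rank, 4 of the 10 strongest sites above led this list. Next came a site on chromosome 2 at 136680696 to 136681336, with scores of 1853 (Oct4) and 1593 (Sox17) in F9+RA cells and of 331 and 170 for Sox17 and 187 for Oct4 in the Sox17 line of ES cells, beside an Oct4 score of 56.6 in Sox2 line A. On chromosome 6, at 29994480 to 29995079 (1653 and 1306), Sox17 scored 442 and 270 and Oct4 249 in the Sox17 line, and no other ES library had a peak. On chromosome 5, at 91949038 to 91949612 (1617 and 1030), the scores were 132, 119 and 172, beside an Oct4 score of 88.6 in Sox2KE line A. At these 3 sites, ES peaks outside the Sox17 line were few and weak. On chromosome 14, at 77227633 to 77228240 (1460 and 1082), Sox17 scored 135 and 184, Oct4 of the Sox17 line 97.2 and Sox2KE replicate B 63.9. On chromosome 2, at 140574144 to 140574903 (1322 and 2760, the highest Sox17 score of all new sites), Sox17 scored 55.1 and 69.5 in ES cells, while Sox2KE scored 307 and 1215 and Oct4 425 and 139 in the Sox2KE line. The last of the 10, on chromosome 7 at 125134085 to 125134675 (1433 and 643), had scores of 113 and 88.5 for Sox17 and 161 for Oct4 of the Sox17 line.

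The leading sites met by all 8 Sox libraries had lower F9+RA scores than the sites above, which were named for their high F9+RA ranks. The order thus follows largely from the naming. The first 5, also taken by rank, all lay above the medians of the 2780 sites (177 for Oct4 and 112 for Sox17). The 17 sites with all 8 Sox libraries were led by one on chromosome 11 at 114932276 to 114933041, with F9+RA scores of 662 (Oct4) and 322 (Sox17) and ES scores of 174 and 122 for Sox17, 698 and 969 for Sox2KE, 167 and 120 for Sox17EK and 534 and 295 for Sox2. On chromosome 19, at 37995324 to 37996341 (489 and 370), Sox2KE replicate B gave 1637 and Oct4 of Sox2KE line A 1128. On chromosome 17, at 78907854 to 78908503 (397 and 339), Sox2KE scored 1083 and 1743, Sox2 1360 and 771, and Oct4 of Sox2 line A 3186. These sites had no Oct4 peak in F9 cells and Oct4 peaks in all 7 ES libraries. Of the first 5, another stood on chromosome 17 from 68043106 to 68043619 with F9+RA scores of 336 and 624. The last, on chromosome 7 from 3221091 to 3222807, had F9+RA scores of 294 and 153. At the chromosome 7 site all 15 ES libraries scored between 507 and 3100. After the chromosome 18 site above, the strongest without any ES peak lay on chromosome 17 from 46710124 to 46711048 with F9+RA scores of 1711 and 781. Another of chromosome 17, from 66701990 to 66703040, had 1621 and 600. Then came a site of chromosome X from 100460234 to 100460839 with 1240 and 812, and one of chromosome 9 from 85463565 to 85464073 with 1108 and 590.

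**Figure D5:**
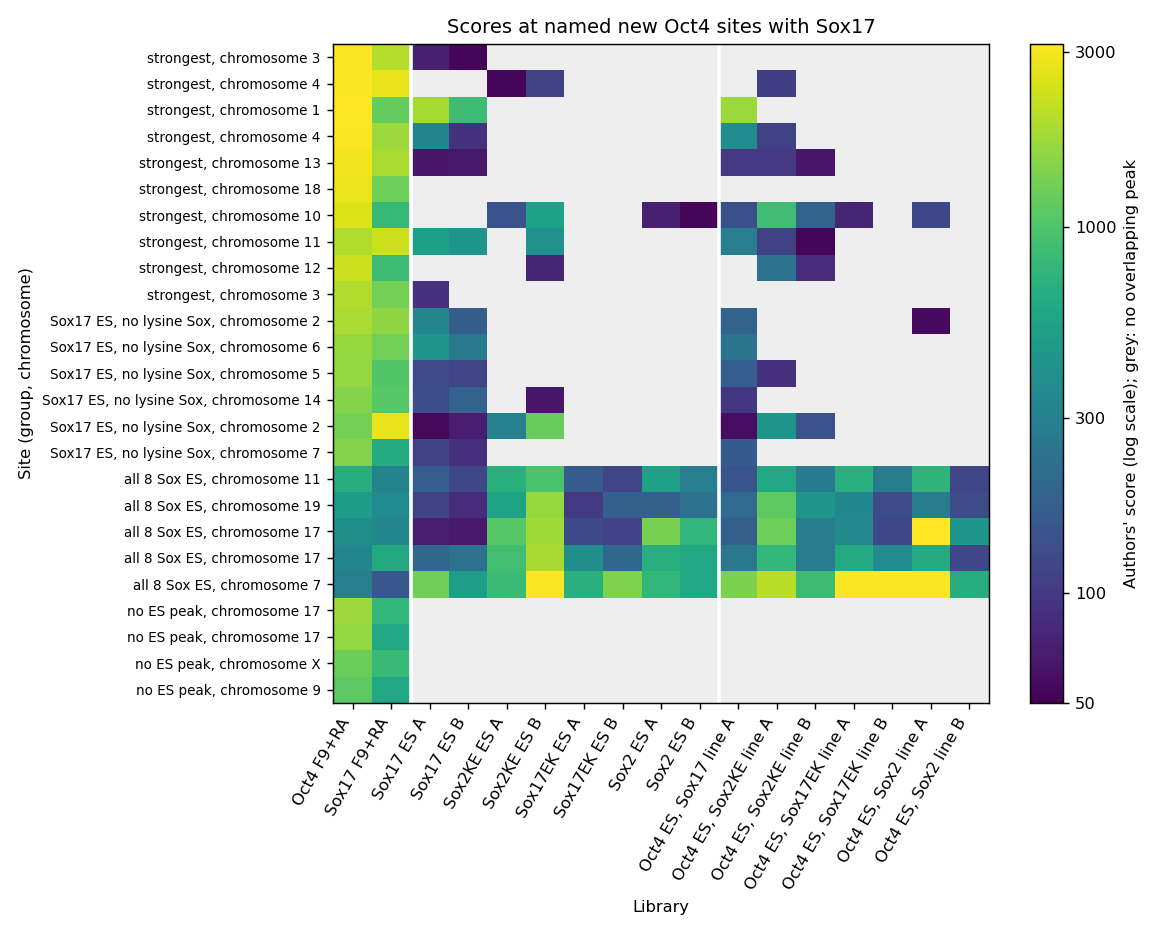
Authors' scores (colour, log scale, grey for no overlapping peak) at 25 named new Oct4 sites with Sox17 (rows, by the group that named them and chromosome) in the Oct4 and Sox17 F9+RA libraries, 8 Sox and 7 Oct4 ES libraries (columns). The strongest sites have peaks mainly in Sox17, Sox2KE and the Oct4 libraries of their lines, and 5 rows have none in ES cells. The rows of the other groups (Sox17 ES without lysine Sox, all 8 Sox, no ES peak) show the pattern that named them.

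Where the sites had an ES peak in whole lists, it was of middling strength for its list. The median percentile of these peaks by score within their list was 57.1 and 71.95 in Sox17, 66.3 and 61.6 in Sox2KE, 59.1 and 46.96 in Sox17EK, and 56.1 and 53.3 in Sox2. For kept sites with Sox17 it was 59.9 and 58.1 in Sox17, 58.96 and 81.0 in Sox2KE, 54.9 and 66.9 in Sox17EK, and 56.8 and 54.9 in Sox2, so the new sites were above them in 3 of these 8 lists (Sox17 B, Sox2KE A and Sox17EK A). For Oct4, the Sox17 line gave 42.8, the Sox2KE line 58.7 and 44.9, the Sox17EK line 42.5 and 44.3, and the Sox2 line 42.4 and 34.3, against 66.8 to 79.4 for kept sites with Sox17 in the same 7 lists.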

How the data were processed

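The deposited files hold 1 peak list per sample, for 18 of 20 samples; the 2 mock libraries were not analysed here. Each peak has a chromosome, start, end, name and score as the authors deposited them; its start and end give its place on the chromosome in bp, an other unit, and are no measurement. Names carry the MACS prefix, and the build is mm9 per the submitters' processing notes. The aligner, the settings of the caller and its control are not stated in the labels or files used here. Positions were read as zero-based starts and printed with 1 added. No sequence or gene name is given, since the reference tables used here belong to build GRCm38, so the planned gene lists and motifs were not run.

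SciPy 1.17.1, pandas 2.3.3 and NumPy 2.4.6 were run under Python 3.11.15. A site counted as met where an ES peak overlapped it by at least 1 bp. Matching was tested on simulated lists. Exact permutation tests over libraries were adjusted by the Benjamini-Hochberg method over the 6 planned tests and, apart, over 6 added ones. The test between classes flipped the signs of the differences within libraries. The labels do not say whether libraries A and B are of separate cultures, so the tests reflect the spread among these libraries alone, possibly a technical one. The members, classes and rules were chosen with earlier results of these data known. Named regions were taken by the mean of the Oct4 and Sox17 F9+RA ranks (10 in all; 10 with both Sox17 ES peaks, Oct4 of that line and no lysine Sox peak; 5 with most Sox peaks; 5 with lysine alone, of which there were none; 5 without ES peak), with the sites next to the rank limit and the densest groups within 20 kb. Alternatives changed list length, matching, site choice, libraries and weighting.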

Additional observations from a re-analysis of the deposited data

Results flagged for a closer look

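The excess of new Oct4 sites with Sox17 over those without Sox17 differed between glutamate and lysine Sox libraries of ES cells, with a difference of the log2 ratios of 1.33 (1.326). Its exact permutation p, taken from both sides, was 0.0286. Among the 6 tests added after the data were seen the adjusted value was 0.0686, so it fails the correction. The ratios were 2.80 to 3.11 in the 4 glutamate and 0.865 to 1.48 in the 4 lysine libraries. Likewise the share of new sites with Sox17 relative to that of all 39768 Oct4 peaks was 0.423 to 0.738 in glutamate and 0.0688 to 0.257 in lysine libraries, which differ by 2.07 (2.067) on the log2 scale (exact permutation p = 0.0286, adjusted 0.0686). Widths of the cut lists moved with both, at medians of 854 to 1429 bp against 417 to 804 bp, and their part in the ratios was not tested. The rule chose the sites by a peak of Sox17, a glutamate protein, so neither ratio is independent of it. Among the Oct4 libraries the first ratio was 1.25 to 2.92 in glutamate lines and 0.453 to 0.672 in lysine lines, a log2 difference of 1.75 (exact permutation p = 0.0571, the smallest possible with 3 against 4).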

How the results depend on the processing

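The 4 differences that passed kept their sign under all alternatives run. The glutamate minus lysine difference of Sox libraries (4.53 points) lost its adjusted call with whole lists (11.7), the 1000 strongest ES peaks (1.36), the 10000 strongest Oct4 peaks (8.59), V5 libraries alone (4.60) and new sites at least 2 kb from any Oct4 F9 peak (4.54), and without any 1 library (4.30 to 4.78). Labels permuted within replicate letters (replicate block) gave 4.53 points at an exact permutation p of 0.0556, the smallest possible. Over 9 pairs of groups the letters correlated between -0.099 and 0.108, which cannot show whether libraries of a letter share a batch. The Sox difference from new sites without Sox17 (2.07) lost its call with whole lists (4.53), the 1000 strongest (0.539), the 10000 strongest (4.13), 2 kb distance (2.04) and 7 of 8 left-out libraries; leaving out each of the 8 gave 1.76 to 2.38, the highest being without Sox17EK replicate A, where the call held. With the 4 lines as units it was 2.07, and the differences from kept sites were -9.28 and -18.1; no p below 0.125 is possible there. Leaving out libraries gave -9.99 to -7.97 and -18.9 to -16.2 for kept sites, calls that held. The Oct4 difference from new sites without Sox17 (0.347, not called) turned to -0.120 when weighted over 10 classes of score and ranged from -0.103 to 0.499 without single libraries; the Oct4 difference between lines ranged from 0.737 to 2.54. The causes were not tested. With midpoints within 200 bp for all matches there were 4480 members, and 1547 with F9 scores of at least 100. The weighting and the 2 kb distance were chosen after the data were seen. With 1 library per F9 list and unknown depth, a missing peak in F9 cells is not shown to be a missing site.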
